A study of Drosophila melanogaster with 12 samples.

Results

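The heat shock genes of Drosophila melanogaster followed here were chosen as chaperone genes of mostly unique sequence together with the activator of the response, and they are 10 of the 18277 annotated genes that entered the comparisons. They comprise the small heat shock protein genes Hsp22, Hsp23, Hsp26, Hsp27, Hsp67Ba and Hsp67Bc, which lie together in the 67B cluster on chromosome 3L, the Hsp70 family genes Hsp68 and Hsc70-4, the Hsp90 gene Hsp83, and Hsf, which encodes heat shock factor. Each gene was followed over its body, at its annotated transcript starts and within 5 kb on each side. Coordinates are dm6 and count from 1.

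The data were chromatin immunoprecipitation (ChIP) profiles of the RNA interference protein AGO2 and of RNA polymerase II (Pol II) in Kc167 cells, an embryo-derived line labelled female. There were 2 libraries of AGO2 ChIP from mock cells, 2 of AGO2 ChIP from LaminB knockdown cells, 2 of Pol II ChIP from mock cells, 4 inputs from mock cells and 2 inputs from knockdown cells. Per the study's methods, mock cells were transfected without any double-stranded RNA and knockdown cells with double-stranded RNA against LaminB, a protein of the nuclear lamina; the AGO2 antibody is named Mueller and the Pol II antibody 8WG16, and no heat treatment is described for any group. Each condition was available as 1 list of intervals called on its pooled libraries: 4201 AGO2 peaks for mock cells, 761 AGO2 peaks for LaminB knockdown cells and 5905 Pol II domains for mock cells, so no value below has a replicate error and none could be tested.

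Heat shock genes are the classical case of a poised promoter. In unstressed fly cells Pol II is engaged just downstream of the start of genes such as Hsp26 and Hsp70 and pauses there, GAGA factor keeps the promoter open, and on heating HSF trimers bind heat shock elements, arrays of alternating nGAAn units, and release the polymerase. The proteins are chaperones: small heat shock proteins hold unfolding clients, Hsp70 proteins refold them with the help of J-domain partners, and Hsp90 matures kinases, receptors and Argonaute proteins.

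The promoters are shown first because the genes differ in the heat shock elements they hold. The 200 bases before the first annotated start are given on the transcribed strand (RefSeq sequence, dm6), with each 8-base heat shock element, GAANNTTC or TTCNNGAA, in capitals.
Hsp68, 3R:24057311-24057510, minus strand: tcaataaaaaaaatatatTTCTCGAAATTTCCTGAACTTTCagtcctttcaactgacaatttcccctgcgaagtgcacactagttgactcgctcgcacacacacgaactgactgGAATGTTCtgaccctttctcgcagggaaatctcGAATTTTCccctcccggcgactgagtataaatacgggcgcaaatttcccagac
Hsp23, 3L:9381682-9381881, plus strand: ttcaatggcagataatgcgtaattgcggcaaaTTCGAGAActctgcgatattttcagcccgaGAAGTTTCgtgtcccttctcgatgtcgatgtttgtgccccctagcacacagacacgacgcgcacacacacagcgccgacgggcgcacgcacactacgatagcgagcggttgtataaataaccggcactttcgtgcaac
Hsp26, 3L:9377428-9377627, minus strand: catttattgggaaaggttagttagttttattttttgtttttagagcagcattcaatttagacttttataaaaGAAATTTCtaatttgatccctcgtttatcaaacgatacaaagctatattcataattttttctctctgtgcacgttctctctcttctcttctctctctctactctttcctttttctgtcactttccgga
Hsc70-4, 3R:15242487-15242686, plus strand: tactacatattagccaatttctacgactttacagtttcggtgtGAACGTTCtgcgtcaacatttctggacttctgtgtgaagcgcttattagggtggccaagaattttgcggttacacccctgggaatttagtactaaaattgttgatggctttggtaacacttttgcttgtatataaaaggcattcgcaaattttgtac
Hsp67Ba, 3L:9379535-9379734, minus strand: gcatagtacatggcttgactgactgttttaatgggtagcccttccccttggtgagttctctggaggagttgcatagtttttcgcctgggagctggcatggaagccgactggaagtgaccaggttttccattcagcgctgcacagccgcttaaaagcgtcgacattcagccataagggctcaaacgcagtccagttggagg

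Hsp68 held 6 matches, 4 of them overlapping in 1 block that begins 182 bases before the start and the others at 86 and 53 bases. The Hsp23 stretch held matches at 168 and 138 bases before the start, and Hsc70-4 held a single match at 157 bases. Hsp26 held 1 match within the 200 bases, at 128 bases, and others at 216 bases before and 3 bases after its first start. Hsp26 also held the most matches of GAGAG or CTCTC, the letters read by GAGA factor. These were 6 in 3 separate groups beginning 68, 53 and 39 bases before its first start. Hsp26 has 2 annotated starts. Its mock AGO2 peak began 199 bp after the first and 147 bp past the nearest, so the inner start lies downstream of the first. The element 3 bases after the first start therefore lies before the inner one. All motif positions were counted from the first start, and TATAAA was not searched from the inner one. The Hsp67Ba stretch, which overlaps a noncoding exon of the antisense gene asRNA:CR43481, held neither motif.

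Over 250 bases before to 50 after the first start, searched on both strands, 5 of the 10 genes held the 8-base element (Hsp23, Hsp26, Hsp67Bc, Hsp68 and Hsc70-4), against 15.8% of all 18277 promoters of that length. The longer form of the element with 3 alternating units was present at Hsp68 alone among the 10 and in 0.421% of all promoters. GAGAG or CTCTC was present at 3 genes (Hsp22, Hsp23 and Hsp26), against 29.5% of all, and a TATAAA beginning 40 to 15 bases before the start at 5 genes (Hsp23, Hsp27, Hsp67Bc, Hsp68 and Hsc70-4), against 6.90%. When 500 bases before any annotated start were searched, 9 of the 10 genes held the 8-base element, all but Hsp67Ba, against 28.6% of all genes. The narrower counts used only the first start, although Hsp22, Hsp26 and Hsp83 have 2 annotated starts and Hsc70-4 has 6. At Hsp22 the starts lie far apart. The mock AGO2 peak in Hsp26 began 3694 bp from the first Hsp22 start and 2628 bp from the nearest. The narrower Hsp22 counts therefore describe its outer promoter, and the inner one was not read apart. A match is a run of letters and not a measured binding site.

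Pol II lay on nearly the whole set in mock cells. A Pol II domain overlapped the body of 9 of 10 genes, against 40.8% of all genes, and an annotated start of the same 9, against 37.1%; within 5 kb all 10 had one, against 64.5%. Hsp67Ba was the exception. The other 9 genes lay on only 6 distinct domains, because Hsp22, Hsp26 and Hsp67Bc share 1 and Hsp23 and Hsp27 another. Of protein-coding genes alone, 49.6% had a domain in the body, 45.8% at a start and 70.7% within 5 kb. Domains covered the whole gene at 5 genes, Hsp22, Hsp23, Hsp26, Hsp68 and Hsp83, a pattern found at 2.72% of all genes and at 6.68% of the 7459 genes with any Pol II domain in the body. In bulk ChIP, protein on fewer cells and less protein per cell cannot be told apart.

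**Figure D1:**
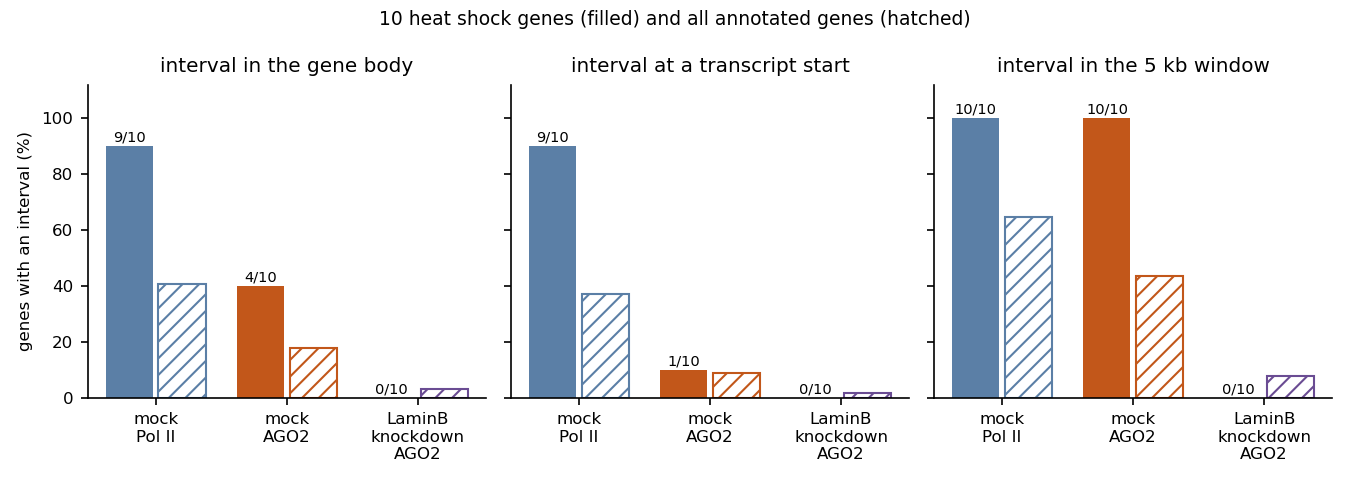
Percentage of genes (vertical axis) with an interval of each list in the gene body, at a transcript start or within 5 kb, for the 10 heat shock genes (filled bars, with counts) and for all 18277 annotated genes (hatched bars). The filled bars stand at 9, 9 and 10 of 10 genes for Pol II, at 4, 1 and 10 for mock AGO2 and at 0 for LaminB knockdown AGO2.

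The mock AGO2 list reached fewer of the genes. A peak overlapped the body of 4 of 10 genes (Hsp23, Hsp26, Hsp68 and Hsf), against 17.6% of all genes and 39.0% of the genes with Pol II in the body; all 4 were among the 9 with Pol II. A peak covered a transcript start at Hsp23 alone, 1 of 10 genes against 8.87% of all. Of protein-coding genes alone, 21.1% had a peak in the body, 10.4% at a start and 47.3% within 5 kb. Within 5 kb all 10 genes had a mock AGO2 peak, against 43.5% of all genes, but these were only 8 distinct peaks, because the cluster genes share neighbourhoods: the Hsp26 peak lies within 5 kb of 5 of the genes and the Hsp23 peak within 5 kb of 4. With parts of the flanks in other genes left out, 6 of 10 genes had one, against 27.0%. These gene counts depended on peak strength: with the stronger 50% of the list, 2 of 10 genes had a peak within 5 kb, against 26.0% of all genes, and 1 of 10 in the body, against 9.67%. With only as many top peaks as the knockdown list holds, the counts were 0 of 10 within 5 kb, against 9.60%, and 0 of 10 in the body, against 3.73%. The peaks themselves were not all weak: those in gry, Hsf, Pcl and Spn55B ranked 925, 1157, 1755 and 2078 of 4201. The peaks in Hsf, Pcl and Spn55B lie near Hsf alone. The cluster genes share the weaker Hsp26 and Hsp23 peaks, ranks 3787 and 2496, and the Hsp68 peak ranked 2200. No gene had a LaminB knockdown AGO2 peak in its body (0 of 10, against 3.21% of all genes), at a start (0 of 10, against 1.72%) or within 5 kb (0 of 10, against 7.87%).

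Hsf encodes the activator itself. Its gene spans 2R:18130303-18134634 on the minus strand, and Pol II lay only on its first part, in a domain of 1005 bp from 106 bp before the start to 898 bp into the gene, which is 20.8% of the body. A mock AGO2 peak of 644 bp, 2R:18133636-18134279, ran from 355 to 998 bp after the start with its summit in coding sequence at 675 bp. Its fold enrichment over input at the summit was 3.62 and its −log10 p 28.33, rank 1157 of 4201, the strongest of the peaks lying in one of the 10 genes. The peak thus sat over the downstream side of the Pol II domain and past its end, not on the start. Hsf was also flanked by mock AGO2 peaks in neighbours, 1 in the coding sequence of Pcl, a Polycomb-like protein gene, and 1 at the start of Spn55B, a serpin gene, with −log10 p values of 23.29 and 21.52.

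Hsp68 is the heat-inducible Hsp70 family gene that is present as a single unique copy, at 3R:24055080-24057310 on the minus strand. Pol II covered it entirely in a domain of 3185 bp, from 336 bp before the start to 618 bp beyond the annotated end, rank 67 of 5905 by width. The mock AGO2 peak, 3R:24055271-24056678, was 1408 bp wide and lay wholly inside the gene, from 632 to 2039 bp after the start, covering 63.1% of the gene and 73.9% of its 1905 coding bases. Fold enrichment was 3.17 and −log10 p 20.96, rank 2200. The promoter with the block of overlapping heat shock elements shown above lay outside the peak.

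The base at the Hsp68 summit is the capital in the following stretch of coding sequence, shown with the corresponding stretch of Hsp26 because both summits lay within the gene and not on these promoters.
Hsp68 summit, 3R:24055647-24055747, minus strand: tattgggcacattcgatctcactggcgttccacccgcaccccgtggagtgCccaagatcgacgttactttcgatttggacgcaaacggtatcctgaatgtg
Hsp26 summit, 3L:9376981-9377081, minus strand: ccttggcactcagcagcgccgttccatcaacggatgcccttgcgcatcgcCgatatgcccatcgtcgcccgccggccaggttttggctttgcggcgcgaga
These stretches had a GC content of 53.5% at Hsp68 and 65.3% at Hsp26. Within 100 bp of the summit on each side, the median GC content was 57.0% for the 8 peaks near heat shock genes and 54.7% for all 4201. The 8-base heat shock element occurred near 1 of the 8 summits (12.5%, against 5.95% of all summits) and GAGAG or CTCTC near 2 of 8 (25.0%, against 39.9%).

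Hsc70-4, at 3R:15242687-15246614 on the plus strand, encodes the constitutive cytosolic Hsp70 and has 6 annotated starts. All 6 lay in a Pol II domain of 4399 bp, 3R:15241973-15246371, rank 19 by width, which also holds the start of the neighbour tefu and covered 93.8% of the Hsc70-4 body. It held no AGO2 peak. The nearest one, 3R:15247315-15247886, began 701 bp beyond the end of Hsc70-4 in the coding sequence of Amt, an ammonium transporter gene, overlapped no Pol II domain and was near the bottom of the list (−log10 p 15.79, rank 4029).

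Hsp83, at 3L:3192969-3197059 on the plus strand, encodes the cytosolic Hsp90, which is abundant without heat and further induced by it. Its domain, 3L:3192185-3199811, was 7627 bp wide, rank 3 of all 5905 Pol II domains, whose median width was 642 bp. It began 784 bp before the first Hsp83 start and ran 2752 bp beyond the gene end, and it also took in the starts of CG14965, CG14966, CG32276 and gry, so Pol II on Hsp83 cannot be told apart from Pol II on these neighbours. No AGO2 peak lay in Hsp83. The nearest, 3L:3199293-3200131, straddled the far edge of the same domain in the coding sequence of gry, 2234 bp beyond the Hsp83 end, and was the strongest of the 8 (fold 3.52, −log10 p 31.46, rank 925).

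**Figure D2:**
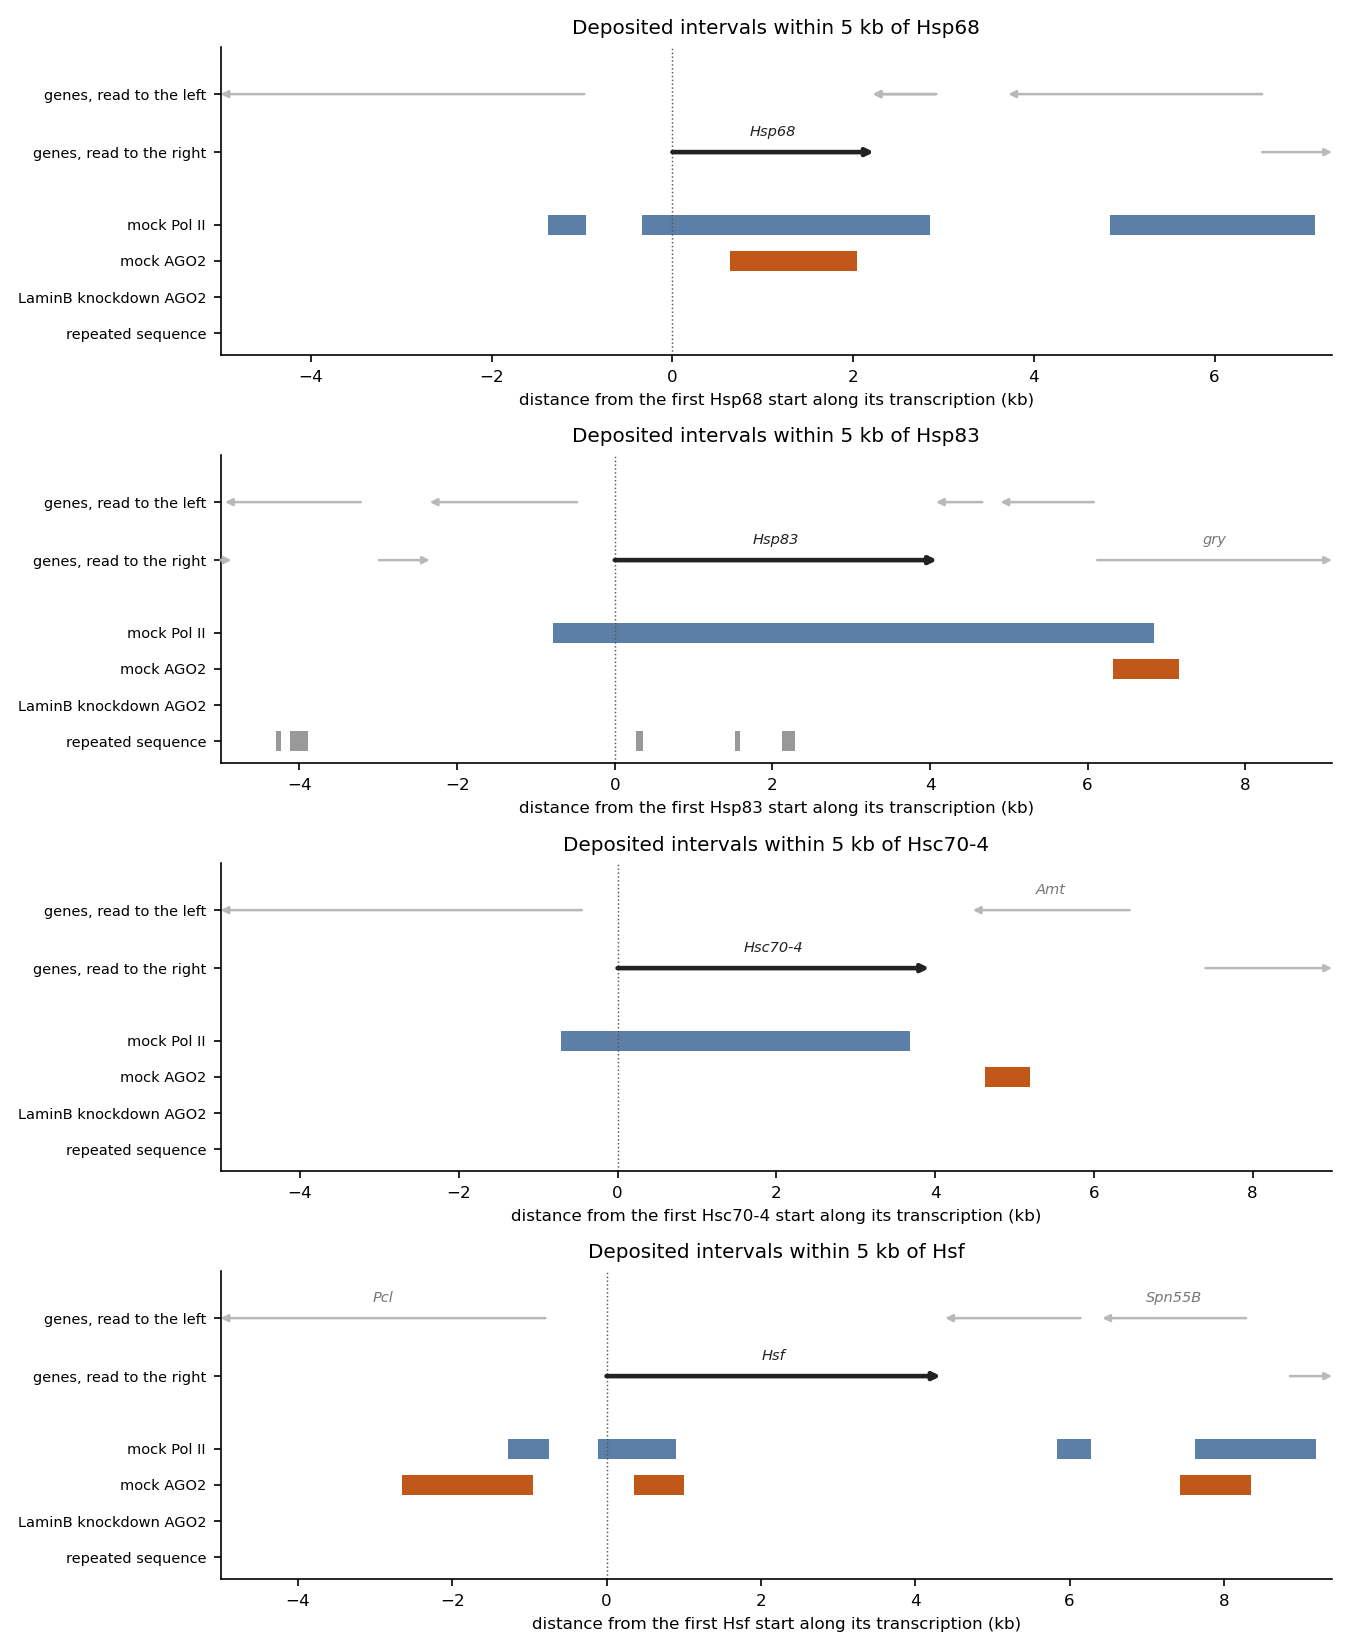
Intervals within 5 kb of Hsp68, Hsp83, Hsc70-4 and Hsf, drawn to scale with distance in kb from the first start along the direction of transcription (horizontal axis); bars are intervals of each list and repeated sequence, arrows are genes (black for the named heat shock gene, grey for neighbours). AGO2 lies inside the gene at Hsp68 and Hsf and in the neighbours gry and Amt at Hsp83 and Hsc70-4, and the LaminB knockdown row is empty in all 4 panels.

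The 67B cluster holds the other 6 genes in 14.2 kb, 3L:9371511-9385694. Pol II domains covered 71.3% of that span in 3 stretches, and mock AGO2 peaks covered 6.39% of it in 2 peaks. The widest domain, 3L:9371757-9377740, was 5984 bp long and rank 5 of 5905; it took in the starts of Hsp67Bc, Hsp22 and Hsp26 and of the small heat shock genes CG4456 and CG4461, so the shares of single genes in it cannot be separated. CG4456, once named Hsp67Bb, overlaps Hsp22 on the same strand, and calls over the pair belong to both.

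**Figure D3:**
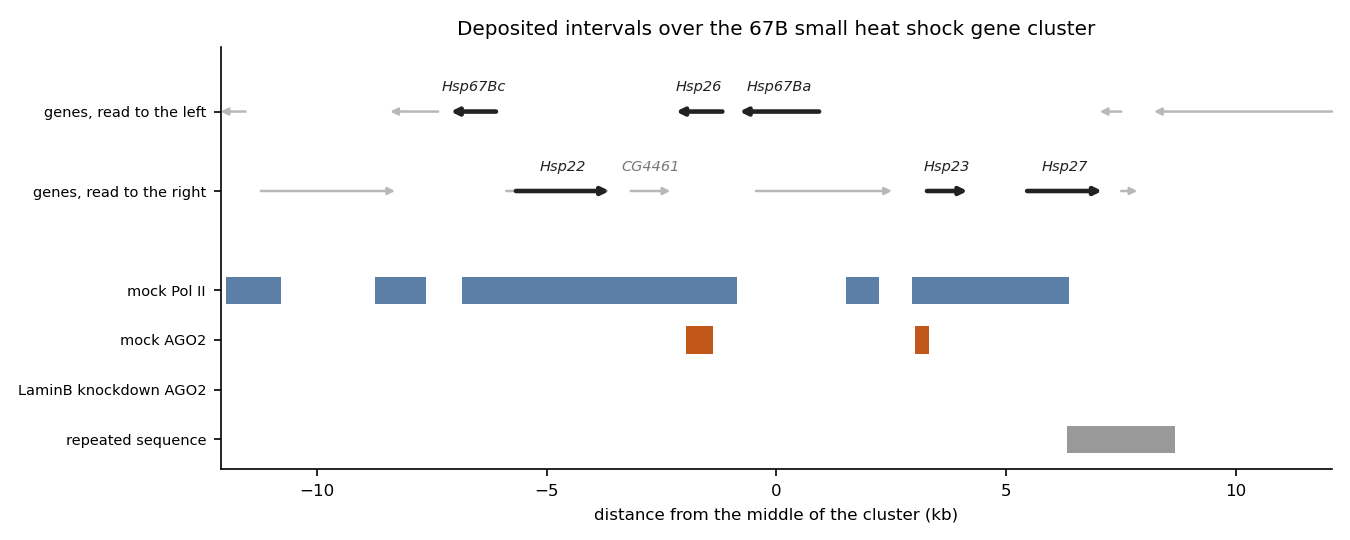
The 67B cluster and 5 kb on each side, with distance in kb from the middle of the cluster (horizontal axis); bars are Pol II domains, AGO2 peaks and repeated sequence, and arrows are genes (black for the 6 heat shock genes followed here, grey for others). Hsp67Ba sits between Pol II domains, the AGO2 peaks lie in Hsp26 and at the Hsp23 start, no knockdown peak is present, and the right-hand Pol II domain ends where repeated sequence begins in Hsp27.

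Hsp26, at 3L:9376418-9377427 on the minus strand, encodes a cytosolic small heat shock protein. Pol II covered all 1010 bp of it, with the domain edge 313 bp before its start. The mock AGO2 peak 3L:9376625-9377228 lay wholly in the gene, from 199 to 802 bp after the first start with its summit at 396 bp, and covered 564 of the 624 coding bases (90.4%). It was one of the weakest of the list, with fold 2.55, −log10 p 16.28 and rank 3787 of 4201. The peak began 147 bp past the nearest annotated start, downstream of the promoter with the CT-rich tract.

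Hsp23, at 3L:9381882-9382765 on the plus strand, encodes another cytosolic small heat shock protein and was the 1 gene of the 10 with AGO2 on its start. The peak 3L:9381621-9381923 was 303 bp wide and ran from 261 bp before to 41 bp after the start, with its summit 66 bp before it, outside any annotated gene. It therefore spanned the printed promoter, both heat shock elements and the TATAAA at 27 bases included. Fold was 3.33, −log10 p 19.77 and rank 2496. Pol II covered the whole gene in a domain of 3418 bp, 3L:9381557-9384974, that also holds the start of Hsp27.

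Hsp27, at 3L:9384063-9385694 on the plus strand, whose product is a small heat shock protein found in the nucleus, had Pol II on its start and on 100% of its 639 coding bases but on 55.9% of the gene. Its domain ended 911 bp after the start. From 868 bp after the start the genome sequence is not unique: 2 adjoining identical copies of 1181 bp cover 3L:9384931-9387293, and 46.8% of the gene lies in them, so that 54.8% of the 50-base stretches in Hsp27 occur once in the genome. The domain reached 44 bp into the first copy, and 720 bp of the gene beyond it had no call; no AGO2 peak of either condition and no other Pol II domain overlapped the copies. The authors removed reads of low mapping quality, and the part of this filter in the position of the domain edge was not tested. No AGO2 peak lay within 2140 bp of Hsp27.

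Hsp22, at 3L:9372931-9374964 on the plus strand, which encodes a mitochondrial small heat shock protein, was covered by Pol II over all 2034 bp and at both annotated starts, and Hsp67Bc, at 3L:9371511-9372497 on the minus strand, a partner of the cochaperone Starvin in autophagy, over 75.1% of its 987 bp including the start. Neither gene held an AGO2 peak, and the nearest one for both was the Hsp26 peak, 1661 bp from Hsp22 and 4128 bp from Hsp67Bc.

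Hsp67Ba, at 3L:9377802-9379534 on the minus strand, lay in a stretch of 2378 bp free of Pol II. The domain over Hsp26 ended 62 bp beyond its 3′ end, and the next domain, over an inner annotated start of asRNA:CR43481, began 585 bp before its start. The first start of that antisense gene lies inside Hsp67Ba, in the stretch without Pol II. All 50-base stretches of Hsp67Ba were unique, as they were for the bodies of 8 of the 10 genes. Hsp67Ba was thus the only gene of the 10 with neither a Pol II domain nor an AGO2 peak in its body, and also the only one without the 8-base element in the wider search.

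Most of the AGO2 summits near the heat shock genes fell in coding sequence. Of the 8 peaks, 7 had the summit in coding sequence (87.5%), against 1499 of 4201 (35.7%), and 2 covered a transcript start (25.0%, those of Hsp23 and Spn55B), against 36.7%. The coding summits lay in Hsf, Hsp26 and Hsp68 and in the neighbours gry, Spn55B, Pcl and Amt. The 8 peaks were chosen by nearness to these genes, whereas the 4201 lie anywhere in the genome. The share of coding sequence within 5 kb of the 10 genes was not measured, so its part in the contrast of summits was not tested. A Pol II domain overlapped 7 of the 8 (87.5%), against 63.0% of the list. Peak widths ran from 303 to 1701 bp with a median of 742 bp, against 510 bp. AGO2 covered 50% or more of the gene at 2 of 10 genes, Hsp26 and Hsp68, against 2.88% of all genes and 16.4% of the 3223 genes with a mock AGO2 peak in the body. The 10 genes had a median length of 1884 bp, against 1646 bp for all genes. Their lengths ran only from 884 to 4332 bp, against 18 to 1965857 bp for all genes. Long genes are harder to cover, and the comparison genes were not matched for length. The part of gene length in these AGO2 shares, and in the whole-gene Pol II shares above, was not tested.

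Wide Pol II domains overlapped AGO2 more often than narrow ones in the lists as a whole, and 5 of the 6 domains over the heat shock genes are wide, that of Hsf being the exception. Of the 6 domains, 5 overlapped a mock AGO2 peak (83.3%), against 39.2% of all 5905 domains. Of the 5 as wide as that of Hsp68 or wider, 4 did (80.0%), against 70.1% of all 67 domains of that width. The Hsc70-4 domain, rank 19, was the one without. The 67 domains include the 5, the width limit was taken from the 5 themselves, and the peak in the Hsp83 domain lay in gry.

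The mock and LaminB knockdown lists were compared to ask which AGO2 peaks are also called when LaminB is depleted. None of the 8 mock peaks overlapped a peak of the knockdown list, and the nearest knockdown peak was 23.5 to 215 kb away. In the whole mock list 638 of 4201 peaks (15.2%) overlapped one, and of the genes with a mock peak within 5 kb, 16.9% also had a knockdown peak there. Retention was lower among weaker peaks: over the range of −log10 p that the 8 peaks span, 15.8 to 31.5, 258 of 3105 mock peaks (8.31%) overlapped a knockdown peak. The 8 peaks had a median −log10 p of 21.2, against 21.4 in the list. In the knockdown list no peak was below 19.85; 5 of the 8 mock peaks were above that value, and those at Hsp26, Amt and the Hsp23 start were below it. Each list keeps the number of peaks that passed a reproducibility threshold, a number that moves with read depth, which the lists do not give, so a peak missing from the shorter list is not shown to have lost AGO2.

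**Figure D4:**
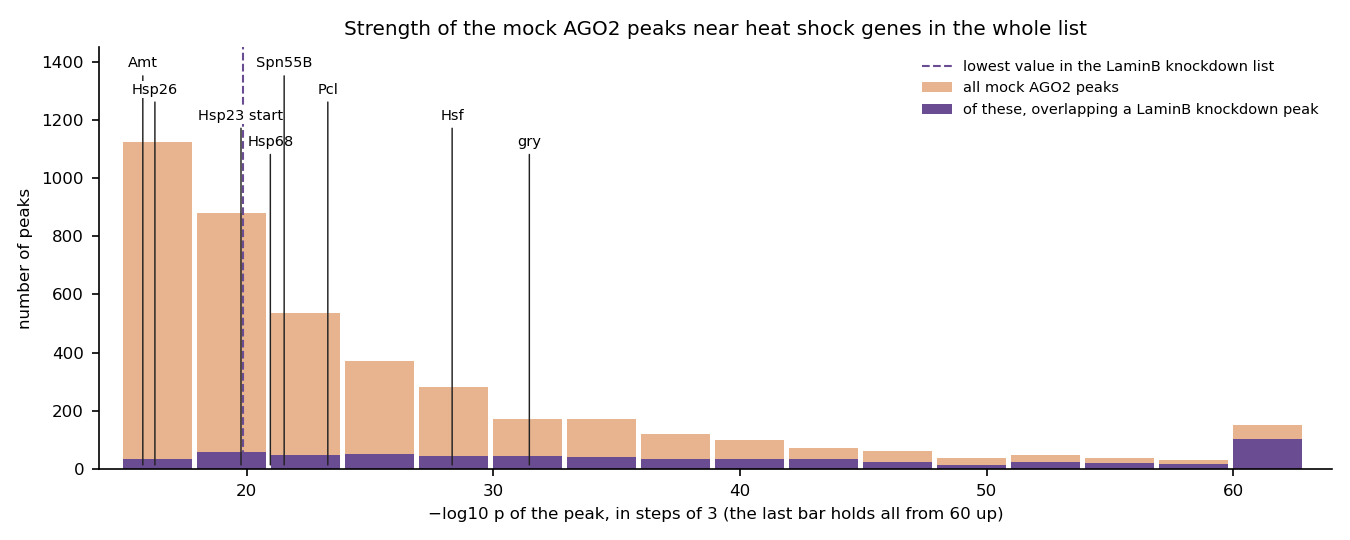
Number of mock AGO2 peaks (vertical axis) by −log10 p (horizontal axis, steps of 3, the last bar holding all peaks from 60 up), with those that overlap a LaminB knockdown peak in purple, the 8 peaks near heat shock genes marked by the gene that holds the summit or, for the intergenic summit, by the Hsp23 start, and the lowest knockdown value, 19.85, dashed. The marked peaks lie between 15.79 and 31.46, where 8.31% of mock peaks overlapped a knockdown peak.

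The nearest knockdown peak to the 6 cluster genes was the same one, 3L:9349456-9349797 in the 5′ UTR of the gene PGRP-LF, with rank 669 of 761. It lay 21.7 kb from Hsp67Bc at the near end of the cluster and 34.3 kb from Hsp27 at the far end. The distance was 23.3 kb for Hsp68, 40.1 kb for Hsc70-4, 42.8 kb for Hsp83 and 208 kb for Hsf. The median over the 10 genes was 30.0 kb, against 73.1 kb over 18164 genes on chromosomes with such a peak. For mock AGO2 the median distance was 0.637 kb, against 7.49 kb, and for Pol II 0 kb, against 1.15 kb.

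**Figure D5:**
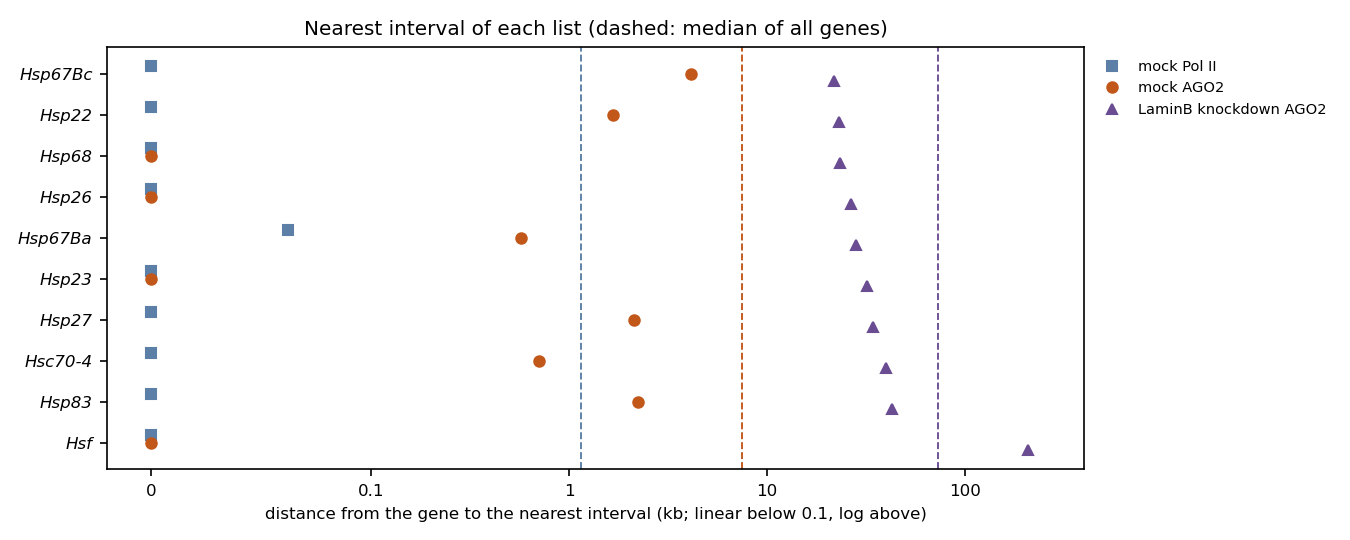
Distance in kb from each of the 10 genes to the nearest interval of each list (horizontal axis, linear below 0.1 and logarithmic above), genes ordered by distance to the nearest knockdown peak; dashed lines are the medians over all genes. Knockdown peaks lie 21.7 to 208 kb away, with Hsf alone beyond the median of all genes, and mock AGO2 peaks lie within 4.13 kb of every gene.

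The rest of the chaperone system gave a wider frame. Of 44 other heat shock and chaperone genes, 11 had a mock AGO2 peak in the body (25.0%, against 17.6% of all genes), 2 a knockdown peak (4.55%, against 3.21%) and 30 a Pol II domain (68.2%, against 40.8%). The families below are small and are read against the same shares. Among 9 genes of heat shock transcription, which encode pausing, elongation and chromatin factors and a noncoding stress RNA, all had Pol II and 4 had mock AGO2. Trl, which encodes GAGA factor, stood out with 6 mock peaks and 3 knockdown peaks. Its best mock peak, in an intron of both Trl and CG42507, had rank 223, fold 4.94. Parp1, the polymerase that loosens heat shock loci, held 3 mock peaks in a gene of 125704 bp, none at a start and the best with rank 3433. Nelf-A, a subunit of the pausing factor NELF, held 2 mock peaks, and CycT, of the kinase that releases paused Pol II, held 1. The noncoding stress RNA gene lncRNA:Hsromega held no mock peak but 1 knockdown peak, 3R:21296405-21297454, rank 556. With 1 pooled list per condition and no read depth, a gain of AGO2 there is not shown.

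Among 11 cochaperone genes 10 had Pol II, all but STUB1, and 4 had mock AGO2: Droj2, a J-domain protein gene, Stip1, which links Hsp70 and Hsp90, Csp, a synaptic J-domain protein gene, and CG1416. Of 6 other Hsp90 and Hsp60 genes, Gp93, the Hsp90 of the endoplasmic reticulum, held the only AGO2 peak and 3 had Pol II. Hsc70-3, the endoplasmic reticulum Hsp70, was the 1 of 5 other Hsp70 and Hsp110 genes with AGO2, and CG14207 the 1 of 7 other small heat shock genes. The 6 near-identical Hsp70 copies had no AGO2 peak in the body and 2, Hsp70Ba and Hsp70Bb, had Pol II, but between 0.817% and 13.4% of the 50-base stretches in each body were unique, and the part of this in the missing calls was not tested.

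For the cell line label, Pol II lay in the body of 8 of 10 hemocyte marker genes, with 40.8% of all genes as background, and of 1 of 4 neuron, 1 of 4 muscle and 1 of 3 germ cell markers; NimC1 and Sr-CI were the hemocyte markers without it.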

How the data were processed

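Adapters were trimmed by the authors (cutadapt 1.10, per the submitters' processing notes and the paper's methods), and the reads were placed on dm6 with Bowtie2 2.2.8. They removed multimapping reads with SAMtools 1.3.1 and duplicates with Picard 2.5.0, and called intervals with MACS2 2.1.1.20160309. AGO2 peaks were called on pooled libraries against pooled input, ranked by p-value and kept up to the number that passed an irreproducible discovery rate threshold between pseudoreplicates. Pol II domains were called in broad mode on pooled libraries, kept if also found in a replicate, and merged with bedtools 2.25.0. The deposited peak files hold positions, a fold enrichment (ratio to input) and a −log10 p-value per peak; the deposited Pol II file holds positions only. Read depth is not given in the lists.

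Intervals were joined with the Ensembl 115 annotation (build 6.54, transposon insertions left out, 7 chromosomes) by an overlap of at least 1 bp, in Python 3.11.15 with NumPy 2.4.6; figures used matplotlib 3.10.9. Overlap code was tested on simulated intervals. Motifs were searched in RefSeq's dm6 sequence, and 50-base stretches were counted on both strands of the whole assembly. Every one of the 10 genes, its nearest intervals and the genes under shared intervals were named; of the other chaperone genes, those with AGO2. Members, lists and motifs were chosen with earlier results of these data known. No test was run, because replicates are pooled in each list. The alternatives varied the overlap, starts, flanks, peak strength and width, gene background and motif.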

Additional observations from a re-analysis of the deposited data

How the results depend on the processing

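Of 54 alternatives to 10 counts, 40 stayed within 1.5 times the count given and 38 left it unchanged; every Pol II and LaminB knockdown count was unchanged in all alternatives run. Part of this was fixed beforehand. The protein-coding alternative changed only the background share, never a count. A knockdown count of 0 could not rise under stricter settings, and a Pol II count of 10 could not rise under wider ones. The nearest knockdown peak was 21.7 kb away, beyond the widest flank of 10 kb. The mock AGO2 counts depended on the strength of the peaks admitted. With the stronger 50% of the list, 1 gene had a peak in the body (Hsf; 9.67% of all genes), 0 at a start (5.84%) and 2 within 5 kb (26.0%). With as many of the highest-ranked peaks as the knockdown list holds, the counts were 0 (3.73%), 0 (2.47%) and 0 (9.60%). With peaks at or above the lowest knockdown value, they were 2 (Hsp68 and Hsf; 11.2%), 0 (6.55%) and 3 (29.9%). Starts widened by 500 bp gave 3 genes with AGO2 (18.3%), a flank of 1 kb gave 6 (26.9%), and flanks without parts in other genes gave 6 (27.0%). For heat shock elements, 3 units gave 1 gene (0.421%) and 500 bases before any start gave 9 (28.6%). No paired analysis was possible because each condition has only 1 pooled list; leaving out single replicates was not run either, since the pooled calls cannot be split.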

Other observations

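Of the 8 mock AGO2 peaks, 4 had summits in neighbours of the heat shock genes and not in the genes themselves. Those in gry and Spn55B and at Pcl overlapped Pol II domains by 519, 732 and 323 bp, and the peak in Amt overlapped none. At Pcl the summit lay outside the domain, and that peak was the widest of the 8 at 1701 bp.

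The mock list also has a peak at PGRP-LF, 3L:9349520-9349734 (rank 2694, fold 3.25), inside the span of the knockdown peak nearest to the 67B cluster, and the next mock peak beyond Hsp27, 3L:9398487-9398789 in the 5′ UTR of CG4080, has no knockdown counterpart before 3L:9467812-9468103 in CG44838. From PGRP-LF to CG4080 the cluster peaks at Hsp26 and the Hsp23 start were thus the only mock AGO2 peaks, while between the knockdown peaks at PGRP-LF and CG44838 there was none.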
